A study of Xenopus tropicalis with 26 samples.

Results

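The step from 2 to 3 h to 3.5 to 4.5 h after stage 8 was followed in untreated control embryos of the frog *Xenopus tropicalis*, which carries the embryo through the early and middle gastrula. The comparison took 6 of the 26 samples of the series, the control time points at 2, 2.5 and 3 h against those at 3.5, 4 and 4.5 h, and covered all 34192 genes of the abundance table apart from the spike-in RNAs. Of these, 14626 genes exceeded an abundance of 0.4 in 6 consecutive control samples and were tested. Both windows held whole embryos fertilised in vitro and kept at 25 °C in diluted Ringer's medium (1/9X MR). By their labels the windows differed in time alone, and no label names the batch of a sample. The paper describes a GC bias that varied with batch. Each sample was made from 10 embryos, and samples were collected every 30 min. The same step was read in another course of embryos kept in 10 mM KCl, called high K+ here, which shares no sample with the controls. There was 1 series of samples per condition, and adjacent time points were used in place of replicates. An adjusted p-value therefore measures a difference against the spread within a window of 3 time points, and that spread holds both sampling error and true change within 1 h.

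Gastrulation is the stage at which cells of the vertebrate embryo move to form ectoderm, mesoderm and endoderm and are committed to them. In *Xenopus* the egg supplies RNA and protein for the first divisions, and the embryo's own genes are switched on at the mid-blastula transition. Nodal signals from the vegetal side induce mesoderm and endoderm, BMP signals pattern the ventral side, and the dorsal organizer secretes inhibitors of both, while Wnt, FGF and retinoic acid signals then set posterior identity.

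The values are abundances per gene, corrected by the authors for base composition on spike-in RNAs and given per length of transcript, and they are not read counts. The depth of each library is unknown, so no counting interval is given. Among the 6 samples, 13314 to 13810 genes lay above an abundance of 1, and the median spike-in level, over 43 spike-in RNAs, ranged from -0.22 to 0.40 on the log2 scale. The sample at 4 h stood apart within its window: it had the highest spike-in level of the 6 and the lowest median log2(abundance + 1) over the genes tested, 3.77 against 4.06 at 3.5 h and 4.02 at 4.5 h. In whole embryos, fewer cells of a type and less RNA per cell cannot be told apart. The tissue in which a gene changed cannot be read from them either, so tissue names below refer to the lists. Of the 14 germ layer markers 12 were in the table and all 12 passed the filter. The endodermal *sox17a* was at 114 or above, the mesodermal *t* at 83.0 or above and the ectodermal *tfap2a* at 227 or above in all 6 samples. Of the 20 listed genes of later tissues, 8 passed the filter and 4 of them rose, *elavl3*, *actc1*, *hbg1* and *myl1*.

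Over this step 1668 genes were higher (11.4% of those tested) and 4802 were lower (32.8%) at an adjusted p below 0.05 in limma. The difference of a gene is the mean of log2(abundance + 1) at 3.5 to 4.5 h minus the mean at 2 to 3 h, which understates the change of genes of low abundance, and each ± gives its standard error over 3 against 3 time points. The median difference was 1.11 among the higher genes and -1.04 among the lower ones. Large rises were more frequent than large falls, with 110 higher genes above 3 and 10 lower genes below -3. Whether called or not, 2530 of the tested genes had all 3 late values above the early ones, and 6521 had all of them below. The 15 largest rises and the 15 largest falls named below were picked among genes without overlap, so that trait holds for them by choice. The median over all genes tested was -0.34, so the typical gene was lower on the scale of the deposited values. An exact permutation test of 3 against 3 values cannot give a p below 0.10, two-sided, so single genes rest on the model fitted across all genes.

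Both counts depended on how the samples were scaled. Of the genes called, 25.8% were higher with values as deposited, 15.8% after scaling to the spike-in level, 21.8% after scaling to a common total and 53.4% after setting the median ratio between samples to 1. With the median ratio at 1, all 1668 higher genes were still called higher and 2706 of the 4802 lower genes were still called lower. With spike-in scaling, 844 and 4307 were. Over all 14626 genes, 852 were higher and 4536 lower with spike-in scaling, and 3103 and 2706 with the median ratio at 1. List counts under these scalings are to be read against those totals. With values as deposited they are to be read against 11.4% higher and 32.8% lower among all genes. Without the 4 h sample, 2 genes were called higher and 0 lower in limma, with 6601 genes at an unadjusted p below 0.05. All 1668 higher and all 4802 lower genes kept their sign without it, and their median adjusted p was then 0.0577. The counts were 989 and 2820 without the 2 h sample, 810 and 1969 without the 2.5 h sample and 843 and 2670 without the 4.5 h sample. Nearly every call below therefore needs the 4 h sample, and list counts are given with their change under scaling where it exceeded 1.5 times. The lists and their members were chosen with earlier results of these data known. Their counts and medians are descriptions and not independent tests.

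**Figure D1:**
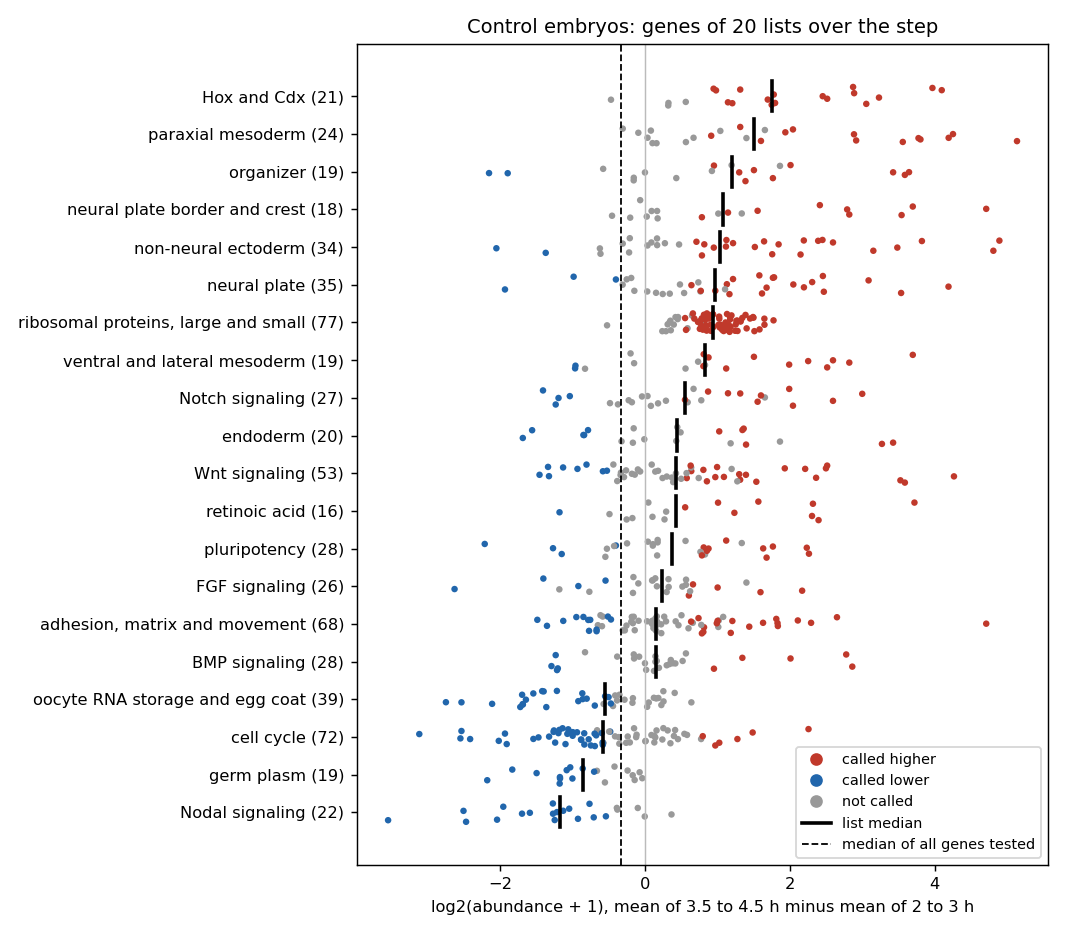
Difference between the windows on the log2(abundance + 1) scale for every tested member of 20 gene lists, with the number tested in parentheses, red for genes called higher, blue for genes called lower and grey for genes not called. The black bar is the list median and the dashed line the median of all 14626 genes, -0.34. The Hox and Cdx list has the highest median, 1.75, and the Nodal signaling list the lowest, -1.17. Another 25 members of the Hox and Cdx list did not pass the filter and are not drawn.

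Genes of the paraxial mesoderm, the tissue that gives rise to somites and muscle, were called higher or not at all. Of 24 tested members 13 rose, 11 did not pass the test and 0 fell, with a list median of 1.5, which is 1.84 above the median of all genes. *msgn1*, a transcription factor of the presomitic mesoderm, was at 0.401, 6.52 and 26.8 at 2, 2.5 and 3 h and 148, 270.0 and 315 at 3.5, 4 and 4.5 h. It was near absent at 2 h and climbed through both windows, with a difference of 5.14 ± 0.92 (limma adjusted p = 0.0114). *myod1*, the transcription factor that starts the muscle program, was at 1.68, 1.46 and 1.31 at 2, 2.5 and 3 h and 16.0, 47.4 and 112 at 3.5, 4 and 4.5 h. The early values were flat and all late values lay above them, a difference of 4.19 ± 0.59 (adjusted p = 0.0114, limma). *foxc2*, a forkhead factor of paraxial mesoderm, went from 1.43, 3.40 and 9.52 to 53.3, 91.2 and 155 over the same time points, and the repressors *ripply2.1* and *ripply2.2*, which act where somite borders form, rose by 3.80 and 3.78. The muscle actin *actc1* began to rise at low abundance, from a mean of 0.508 to 17.2.

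Not every gene of this tissue moved. The pan-mesodermal T-box gene *t*, the symbol used here for *tbxt*, was at 83.0, 228 and 268 at 2, 2.5 and 3 h and 302, 279.8 and 412 at 3.5, 4 and 4.5 h. Its late values lay above the early ones, but the difference of 0.92 ± 0.41 did not pass the test (adjusted p = 0.0961, limma). *fgf8*, which signals in the ring of mesoderm around the blastopore, stayed between 67.2 and 129.6 at the 6 time points and differed by -0.09 ± 0.25. *eomes*, a T-box gene that acts earlier in mesendoderm, fell from 151, 178 and 153 to 109, 80.5 and 80.8 (difference -0.84 ± 0.17).

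Posterior patterning genes gave the highest list median. Of 21 tested Hox, Cdx, Meis, Pbx and Evx genes 17 rose and 0 fell, with a median of 1.75, or 2.08 above that of all genes. Another 25 members of the list did not pass the filter, among them many of the more posterior Hox genes. A gene near 0 in the early window could pass through its values from 3.5 to 6 h alone. The share that rose and the list median therefore follow in part from the filter. *hoxb1*, a Hox gene of the hindbrain, was at 0, 0.0736 and 0.646 at 2, 2.5 and 3 h and 8.76, 20.3 and 41.6 at 3.5, 4 and 4.5 h. It was at or close to 0 in the early window and higher at each time point than at the one before, with a difference of 4.10 ± 0.50 (adjusted p = 0.0114 in limma). *cdx2*, a caudal-type factor that activates posterior Hox genes, was at 1.36, 16.9 and 43.4 at 2, 2.5 and 3 h and 115, 196 and 316 at 3.5, 4 and 4.5 h. It had begun to rise within the early window, and the windows still did not overlap, with a difference of 3.97 ± 0.94. *hoxd1* and *cdx1* rose by 3.23 and 2.89. The members that were not called included *hoxd8*, *hoxc13* and the Hox cofactor gene *pbx3*.

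Retinoic acid, made from vitamin A, is read by nuclear receptors and removed by Cyp26 enzymes. Of 16 tested genes of this pathway 8 rose and 1 fell, against a list median of 0.42. *crabp2*, which carries retinoic acid to its receptors, was at 1.69, 8.61 and 27.1 at 2, 2.5 and 3 h and 69.4, 147 and 158 at 3.5, 4 and 4.5 h, with no overlap and a difference of 3.72 ± 0.76 (adjusted p = 0.0114, limma). The degrading enzymes *cyp26c1* and *cyp26a1* rose by 2.40 ± 0.33 and 1.56 ± 0.26, *dhrs3*, which lowers the precursor retinaldehyde, by 2.32 ± 0.35, and the receptor *rara* by 2.31 ± 0.42. The synthetic enzyme *aldh1a2* was at 126, 133 and 136 at 2, 2.5 and 3 h and 138, 119.6 and 170.1 at 3.5, 4 and 4.5 h and was not called (0.10 ± 0.17, adjusted p = 0.633, limma). Another receptor, *rxrg*, fell by -1.18.

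In the Wnt pathway 20 of 53 tested genes rose and 8 fell, with 11 and 6 under spike-in scaling and 30 and 3 with the median ratio at 1. *sp5*, a zinc-finger gene switched on by Wnt signals, was at 1.63, 2.60 and 5.38 at 2, 2.5 and 3 h and 33.8, 88.9 and 137 at 3.5, 4 and 4.5 h. All late values exceeded the early ones, a difference of 4.27 ± 0.52 (limma adjusted p = 0.0114). Several secreted antagonists rose, among them *frzb2* by 3.59 and *sfrp1* by 3.53, as did the agonist *rspo2* by 2.5 and *ror2*, a receptor of the branch that steers cell movement, by 2.52. The falls were in *nkd1*, an inhibitor of Dishevelled (-1.46), the receptors *fzd1* (-1.34) and *lrp5* (-0.93), *apc*, a part of the complex that degrades beta-catenin (-1.33), and the ligand *wnt5a* (-1.13).

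**Figure D2:**
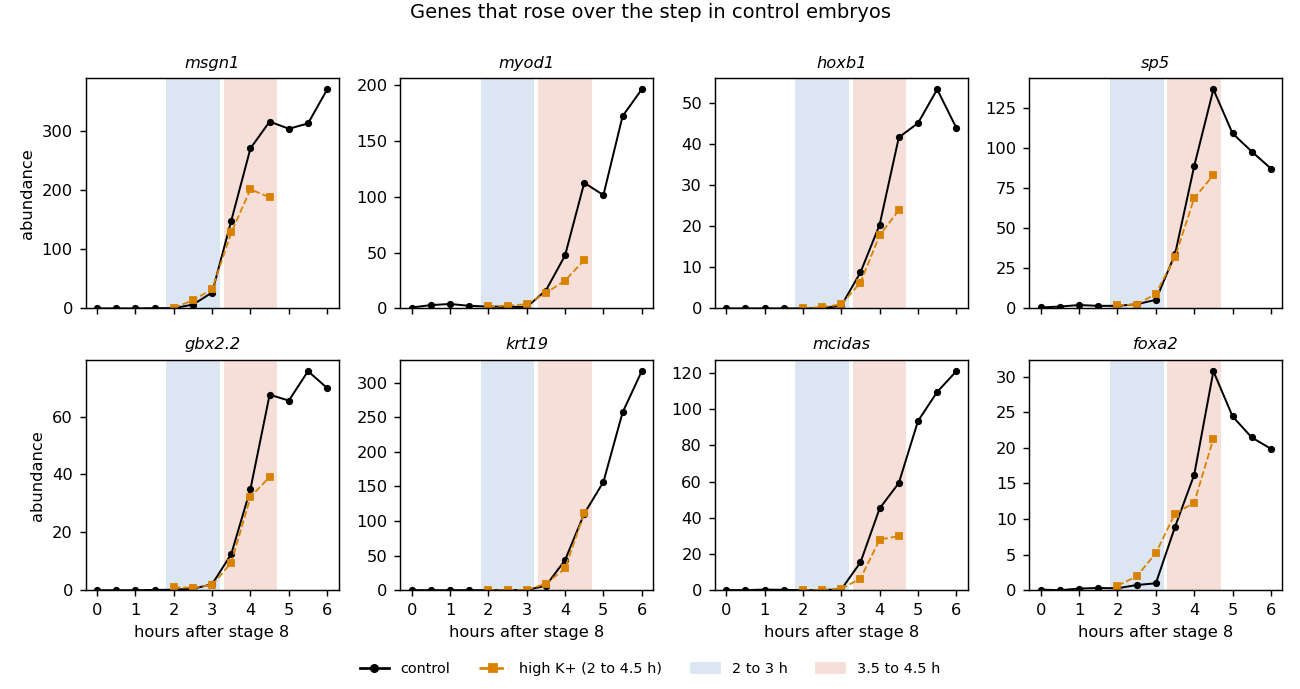
Abundance at each of 13 control time points (black) and at the 6 matching high K+ time points (orange) for 8 genes that rose, with the 2 to 3 h window shaded blue and the 3.5 to 4.5 h window shaded red. Each gene lies low through 3 h and all 3 late control values exceed the early ones, for example *msgn1* at 0.401 to 26.8 and then 148 to 315.

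Most called genes of the neural plate rose. Of 35 tested neural plate genes 19 rose and 3 fell, with a median of 0.97, and with the median ratio at 1 the counts were 22 and 1. *gbx2.2* and its neighbour *gbx2.1*, homeobox genes that mark the territory behind the midbrain border, rose by 4.19 ± 0.59 and 3.54 ± 0.57. *gbx2.2* was at 0.178, 0.524 and 2.05 at 2, 2.5 and 3 h and 12.5, 35.0 and 67.6 at 3.5, 4 and 4.5 h, so each time point exceeded the one before it. The anterior homeobox gene *hesx1* rose by 3.09 ± 0.66, *irx3* by 2.47 ± 0.55 and the proneural factor *neurog1* by 2.46 ± 0.38. *sox2*, a SoxB1 factor kept on in the neural plate, was at 117, 267 and 357 at 2, 2.5 and 3 h and 670.1, 697 and 792 at 3.5, 4 and 4.5 h, with a difference of 1.68 ± 0.36 (adjusted p = 0.0121, limma). Its relative *sox3*, which the egg also supplies, was at 656, 615 and 523 at 2, 2.5 and 3 h and 464, 449 and 437 at 3.5, 4 and 4.5 h. Here the order was reversed and the fall small, -0.40 ± 0.14 (adjusted p = 0.0494, limma), and after setting the median ratio to 1 it was -0.00 and not called. The geminin gene *gmnn*, which restrains DNA replication, fell by -1.94 ± 0.36, and *neurog3* by -0.99 ± 0.27.

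Rises among genes of ectoderm outside the neural plate, the future skin, included a keratin, Dlx factors and the regulator of ciliated cells. Of 34 tested members 21 rose and 2 fell, or 23 and 1 with the median ratio at 1, and the median was 1.03. *mcidas*, which drives the formation of multiciliated cells, was at 0.0295, 0.142 and 0.473 at 2, 2.5 and 3 h and 15.4, 45.2 and 59.2 at 3.5, 4 and 4.5 h. It stayed under 1 in the early window, and the difference was 4.89 ± 0.46 (adjusted p = 0.00978 in limma). *krt19*, a keratin, was at 0.0386, 0.223 and 0.310 at 2, 2.5 and 3 h and 6.39, 43.6 and 111 at 3.5, 4 and 4.5 h, a difference of 4.81 ± 0.84 (limma adjusted p = 0.0114). The homeobox genes *dlx6* and *dlx3* rose by 3.82 and 3.48 and the zinc-finger factor *gata3* by 3.15. *tfap2a*, an early ectodermal activator, was at 227, 389.8 and 426 at 2, 2.5 and 3 h and 646, 664 and 901 at 3.5, 4 and 4.5 h (1.12 ± 0.26), while its relative *tfap2c* and the grainyhead factor *grhl1*, both already abundant at 0 h (376 and 154), differed by 0.47 and 0.03 and were not called.

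The falls in this list were forkhead genes of the Foxi family. *foxi2*, a maternal factor that activates ectodermal genes, was at 518, 313 and 189 at 2, 2.5 and 3 h and 130.4, 65.6 and 48.6 at 3.5, 4 and 4.5 h. It dropped at every time point from 1128 at 0 h, and its difference was -2.05 ± 0.43 (adjusted p = 0.0117, limma). *foxi1*, used later in ion-transporting cells, was at 23.0, 55.6 and 48.8 at 2, 2.5 and 3 h and 23.2, 9.68 and 14.1 at 3.5, 4 and 4.5 h, so its windows overlapped although it was called (-1.37 ± 0.40).

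Of 18 tested genes listed for the border of the neural plate, where neural crest and placodes arise, 9 rose and 0 fell. Their median was 1.08. *twist1*, a regulator of mesoderm and crest, was at 1.43, 0.631 and 2.37 at 2, 2.5 and 3 h and 30.4, 77.0 and 97.3 at 3.5, 4 and 4.5 h, a difference of 4.71 ± 0.46 (adjusted p = 0.01, limma). *pax3*, a border gene, rose by 2.79 ± 0.56.

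Of 19 tested genes of ventral and lateral mesoderm 11 rose and 2 fell. The counts were 7 and 3 under spike-in scaling and 12 and 1 with the median ratio at 1. *msx1*, a homeobox target of BMP, was at 2.57, 32.9 and 63.6 at 2, 2.5 and 3 h and 159, 276 and 385 at 3.5, 4 and 4.5 h. It was higher in each late sample than in any early one (3.70 ± 0.94, adjusted p = 0.0178 in limma), and *msx2* and *gata2* rose by 2.82 and 2.60. *lmo2*, a partner of blood transcription factors, rose from a mean of 0.431 to 7.06. The falls were *ventx3.1* (-0.97) and *hand2* (-0.96), a gene at means of 2.26 and 0.571.

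Endoderm genes moved both ways, with 6 of 20 rising and 5 falling and a median of 0.44. With all 13 control samples in the fit the counts were 4 and 1. Among all genes 11.4% were higher and 32.8% lower with values as deposited, so falls were not more frequent in this list. The pioneer forkhead genes *foxa2* and *foxa1* rose by 3.43 ± 0.41 and 3.27 ± 0.65. *foxa2* was at 0.279, 0.728 and 0.976 at 2, 2.5 and 3 h and 8.90, 16.2 and 30.8 at 3.5, 4 and 4.5 h, with all early values under 1. *gata6* and *gata5* rose by 1.39 and 1.34. *gata4* differed by 1.18 ± 0.43 without overlap but was not called (adjusted p = 0.0559, limma). The Sox17 genes, which hold endodermal identity, divided: *sox17a* rose by 1.02 ± 0.25 (adjusted p = 0.0163, limma), and *sox17b.1* was at 35.2, 46.6 and 44.7 at 2, 2.5 and 3 h and 46.5, 46.7 and 33.0 at 3.5, 4 and 4.5 h, a difference of -0.01 ± 0.21. Falls were found in the Mix family, whose genes respond early to Nodal and VegT. *mix1* was at 179, 207 and 156 at 2, 2.5 and 3 h and 97.3, 49.2 and 45.2 at 3.5, 4 and 4.5 h, so it peaked in the early window and ended far below it (-1.56 ± 0.29), and *bix1.1* fell by -1.69 ± 0.39. *cxcr4*, a chemokine receptor, and *hnf4a* fell by -0.85 and -0.79.

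Genes of the organizer, the dorsal signaling centre, rose more often than they fell. Of 19 genes tested 9 rose and 2 fell, against 11.4% higher and 32.8% lower among all genes. *shh*, the signal made by axial mesoderm, was at 0.762, 0.506 and 1.99 at 2, 2.5 and 3 h and 16.1, 21.4 and 39.6 at 3.5, 4 and 4.5 h, with a difference of 3.65 ± 0.39 (adjusted p = 0.0114 in limma). The Wnt antagonist *frzb2* was at 3.02, 36.4 and 83.1 at 2, 2.5 and 3 h and 230.2, 262 and 361 at 3.5, 4 and 4.5 h, and its windows did not overlap (3.59 ± 0.94). The activin and BMP binding protein *fst* and the head gene *otx2* rose by 2.01 and 1.77. *sia1* and *sia2*, homeobox genes switched on by maternal Wnt signals in the blastula, fell. *sia2* was at 13.6, 3.37 and 0.751 at 2, 2.5 and 3 h and 0.262, 0 and 0 at 3.5, 4 and 4.5 h and so reached 0 by 4 h, while *sia1* ended at 2.55. *gsc*, the classic organizer homeobox gene, was at 152, 206 and 209 at 2, 2.5 and 3 h and 191, 106 and 96.5 at 3.5, 4 and 4.5 h. Its value at 3.5 h lay within the early range and the difference of -0.58 ± 0.27 was not called (adjusted p = 0.113, limma).

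Nodal signaling was the pathway with the lowest list median. Of 22 tested genes 17 fell and 0 rose, with a median of -1.17, or -0.84 relative to all genes. With the median ratio set to 1, 10 of them fell and 0 rose. Of the 2 genes listed as *nodal*, one (gene417) was at 126, 66.7 and 39.3 at 2, 2.5 and 3 h and 12.8, 3.24 and 2.70 at 3.5, 4 and 4.5 h. It had climbed to 128 at 1.5 h, fell at each time point of both windows and was down to 0.0948 at 6 h, and its difference of -3.55 ± 0.57 was the largest fall under the naming rule (limma adjusted p = 0.0114). The other (gene20745) fell by -0.71 ± 0.24. Reads from genes this alike could be divided between them in counting, so the split between the copies is uncertain. *nodal2* was at 31.4, 39.5 and 25.5 at 2, 2.5 and 3 h and 10.4, 3.95 and 2.35 at 3.5, 4 and 4.5 h. It peaked at 2.5 h and differed by -2.51 ± 0.43, and *nodal1*, *nodal5* and *nodal6* fell by -1.96, -1.25 and -1.70.

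Components on the receiving side fell as well. The co-receptor *tdgf1.1* fell by -2.04 ± 0.36, the receptor *acvr1b* by -0.77 ± 0.19, the effector *smad2* by -1.13 ± 0.27 and its DNA-binding partner *foxh1* by -1.27 ± 0.39. *dand5*, a secreted Nodal antagonist of the Cerberus family, was at 215, 120.3 and 71.9 at 2, 2.5 and 3 h and 40.4, 15.1 and 15.8 at 3.5, 4 and 4.5 h, a fall of 2.47 on the log2 scale. *lefty*, the feedback inhibitor that Nodal itself induces, was at 89.6, 127 and 111 at 2, 2.5 and 3 h and 124, 88.9 and 92.8 at 3.5, 4 and 4.5 h. Its windows overlapped and the difference was -0.10 ± 0.20 (adjusted p = 0.691 in limma). The named ligands, co-receptor and effectors were thus lower in the late window, while *lefty* was not called.

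**Figure D3:**
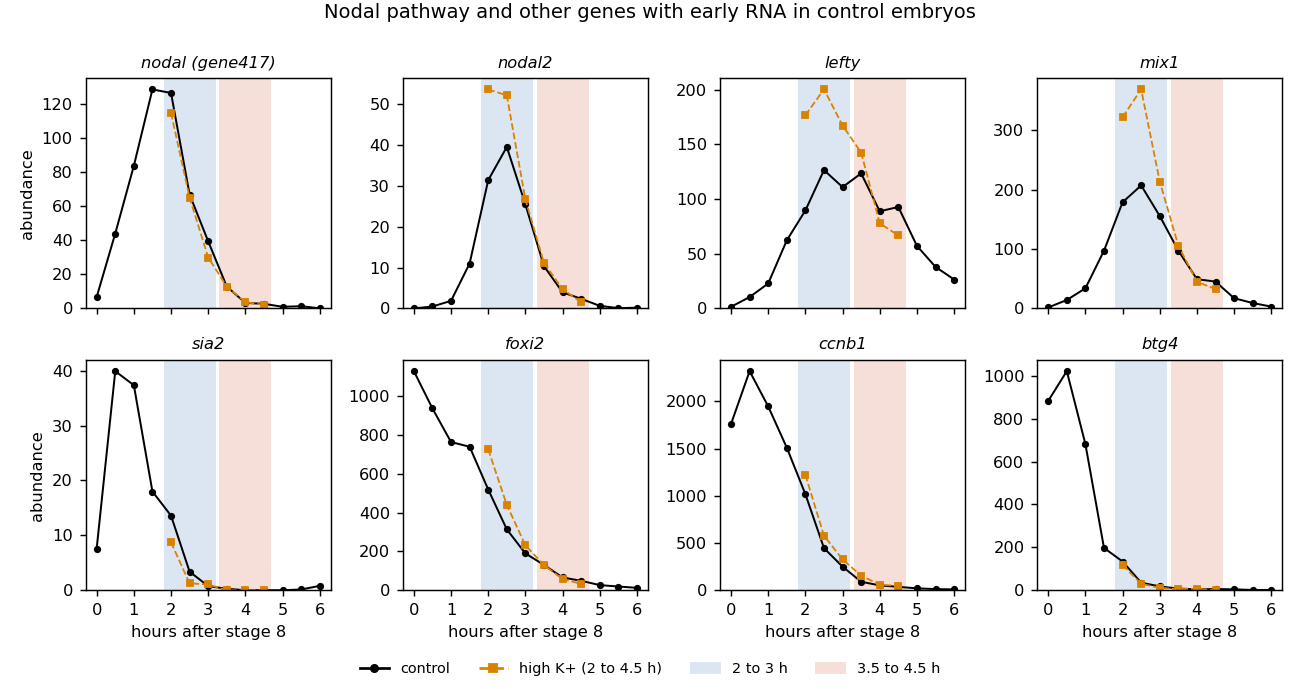
Abundance at 13 control time points (black) and at 6 high K+ time points (orange) for *nodal* (gene417), *nodal2*, *lefty*, *mix1*, *sia2*, *foxi2*, *ccnb1* and *btg4*, with the early window shaded blue and the late window red. *foxi2*, *ccnb1* and *btg4* are at 1128, 1761 and 883 at 0 h, whereas *nodal2* and *mix1* start at 0 and 1.60 and peak at 2.5 h, and *lefty* lies between 88.9 and 127 at all 6 window time points.

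BMP and FGF signaling changed in individual members. Among all genes 11.4% were higher and 32.8% lower with values as deposited, so falls were less frequent in both lists than in general. Of 28 tested BMP genes 5 rose and 4 fell, with a median of 0.15, with 3 and 5 and a median of -0.051 under spike-in scaling and 10 and 3 with the median ratio at 1. The receptor *bmpr1b* rose by 2.86 ± 0.62 while the receptor *bmpr1a* fell by -1.23 ± 0.22. The antagonist *chrd* rose by 0.95 ± 0.26. The ligand *bmp2* fell by -1.21 ± 0.34 and the extracellular modulator *twsg1* by -1.29 ± 0.25. *bmp4*, the main ventral ligand, was at 69.1, 89.8 and 102 at 2, 2.5 and 3 h and 133, 103 and 137 at 3.5, 4 and 4.5 h, and its difference of 0.52 ± 0.20 did not pass the test (adjusted p = 0.0640, limma). Of 26 FGF genes 5 rose and 4 fell, with 2 and 5 under spike-in scaling and 11 and 3 with the median ratio at 1. *spred1*, an inhibitor of Ras signaling, rose by 2.17 ± 0.49, the receptor *fgfr2* by 1.59 ± 0.36 and the ligand *fgf20* by 1.00 ± 0.22. The adaptor gene *frs2* (gene30372) was at 45.3, 16.5 and 5.90 at 2, 2.5 and 3 h and 2.71, 1.53 and 1.49 at 3.5, 4 and 4.5 h, a steady loss from 201 at 1 h.

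More Notch signaling genes rose than fell. Of 27 tested genes 10 rose and 4 fell, against 11.4% higher and 32.8% lower among all genes, so falls were less frequent than in general. The rises were led by members of the Hes family, only some of which are targets of Notch: *hes3* by 3.00 ± 0.74, *hes8* by 2.60 ± 0.45, *hes5.1* by 2.04 ± 0.48, *hes9.1* by 1.99 ± 0.42 and *hes6.2* by 1.60 ± 0.21. *hes3* was at 3.25, 28.6 and 38.0 at 2, 2.5 and 3 h and 101, 151 and 161 at 3.5, 4 and 4.5 h and was higher at each time point than at the one before. The related gene *hey1* fell by -1.41 ± 0.30, as did the co-activator *maml2* (-1.20 ± 0.21), the glycosyltransferase *rfng* (-1.23 ± 0.26) and the inhibitor *numb* (-1.04 ± 0.23). The ligand *dll1* averaged 53.8 and 76.4, overlapped between windows and was not called.

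Among genes of adhesion, matrix and movement 18 of 68 rose and 12 fell, with 8 and 10 under spike-in scaling and 27 and 3 with the median ratio at 1. Among all genes 11.4% were higher and 32.8% lower with values as deposited, so falls were less frequent in this list than in general. The laminin chain *lamb1* rose by 2.65 ± 0.48, the collagen *col18a1* by 1.83 ± 0.36, and the cadherins *cdh11* and *cdh2* by 2.29 ± 0.38 and 2.11 ± 0.39. *cdh2*, the cadherin of neural and mesodermal tissue, was at 0.498, 0.533 and 0.604 at 2, 2.5 and 3 h and 2.77, 5.42 and 11.3 at 3.5, 4 and 4.5 h. The falls included *timp3*, an inhibitor of metalloproteinases (-1.49 ± 0.36), *flrt3*, a membrane protein that lowers cadherin adhesion in *Xenopus* (-1.35 ± 0.33), *pcdh1* (-1.13 ± 0.32) and *sdc1* (-0.95 ± 0.26).

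In the fit to the 6 window samples, more genes of the pluripotency list rose than fell. The counts describe the RNA of listed genes, whatever their role, and do not measure pluripotency. Of 28 tested 10 rose and 4 fell, with 6 and 3 under spike-in scaling and 14 and 2 with the median ratio at 1. With all 13 control samples in the fit, the counts were 4 and 4, with 1530 and 3774 over all genes. Among all genes 11.4% were higher and 32.8% lower with values as deposited. The 3 Pou5f3 genes, the frog relatives of mammalian Oct4, went 3 ways. *pou5f3.3*, the maternal one, was at 657, 373 and 251 at 2, 2.5 and 3 h and 136, 64.7 and 67.8 at 3.5, 4 and 4.5 h and fell by 2.21 ± 0.39 on the log2 scale. *pou5f3.1* was at 336, 590.3 and 792 at 2, 2.5 and 3 h and 1330.1, 1528 and 2306 at 3.5, 4 and 4.5 h and rose by 1.63 ± 0.33 (adjusted p = 0.0114, limma). *pou5f3.2* was at 773, 1096 and 1236 at 2, 2.5 and 3 h and 1311, 989 and 1158 at 3.5, 4 and 4.5 h, overlapped between the windows and differed by 0.17 ± 0.21. The orphan receptor *nr6a1* and the zinc-finger gene *prdm14* rose by 2.26 ± 0.40 and 2.23 ± 0.67. At 6 h *pou5f3.1* was at 708 and *prdm14* at 18.6, below their late-window values, while *nr6a1* was at 509.7.

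Related genes with opposite changes were found in other families too. *bmp7.2* was at 526, 655 and 518 at 2, 2.5 and 3 h and 354, 182 and 218 at 3.5, 4 and 4.5 h and *bmp7.1* at 0.572, 4.18 and 7.16 at 2, 2.5 and 3 h and 15.6, 28.9 and 42.4 at 3.5, 4 and 4.5 h. The first fell by 1.22 and the second rose by 2.78 ± 0.61, and the first remained the more abundant in all 6 samples. The replication licensing gene *mcm6* fell by 1.24 while *mcm6.2* rose by 1.49 ± 0.36. Of the 2 genes listed as *mcm3*, gene19482 was at 86.1, 71.0 and 49.9 at 2, 2.5 and 3 h and 36.1, 18.2 and 31.3 at 3.5, 4 and 4.5 h and gene3896 at 24.8, 35.5 and 45.2 at 2, 2.5 and 3 h and 56.0, 93.8 and 113 at 3.5, 4 and 4.5 h. Their order therefore reversed between the windows, with differences of -1.26 ± 0.30 and 1.28 ± 0.31. These pairs were singled out after their values were seen, and reads of similar copies may have been divided between them in counting.

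**Figure D4:**
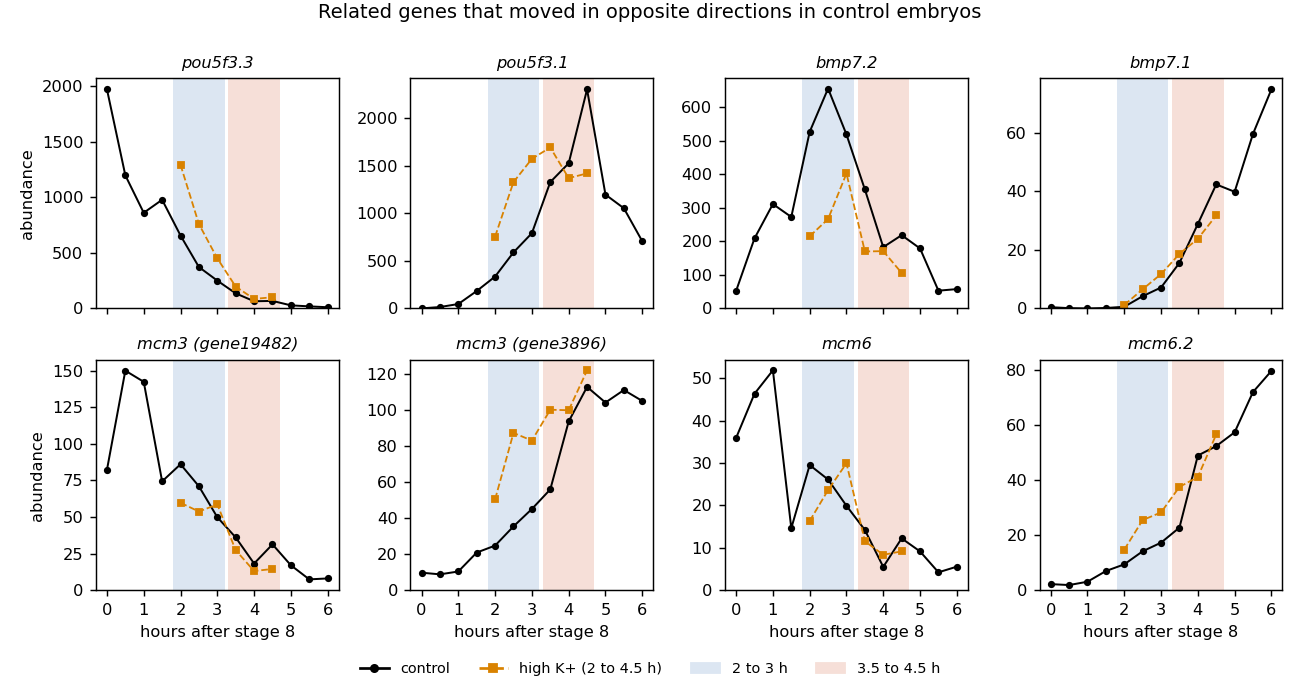
Abundance over the control course (black) and at 6 high K+ time points (orange) for 4 pairs of related genes, each pair with the falling gene on the left and the rising gene on the right, early window blue and late window red. *pou5f3.3*, *mcm3* (gene19482) and *mcm6* are highest by 1 h and *bmp7.2* at 2.5 h. The partners start at 0.427, 9.76, 2.22 and 0.422 at 0 h.

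Among genes whose RNA the egg stores, those called were lower in the late window with values as deposited. Of the 39 tested genes of oocyte RNA storage and the egg coat 0 rose, 21 fell and 18 were not called, with a median of -0.55, and with the median ratio at 1 the counts were 7 and 13. *btg4*, an adaptor that brings deadenylases to maternal RNA, was at 134, 35.3 and 17.8 at 2, 2.5 and 3 h and 7.59, 4.43 and 5.46 at 3.5, 4 and 4.5 h after 883 at 0 h (-2.75 ± 0.63, limma adjusted p = 0.0138). The oocyte linker histone *h1-8*, listed as *h1foo*, was at 17371, 10763 and 6224 at 2, 2.5 and 3 h and 4065, 1962 and 1801 at 3.5, 4 and 4.5 h, the highest abundance in this list, and fell by 2.11 ± 0.43. *wee2*, the embryonic kinase that restrains Cdk1, fell by 2.54, the RNA-binding gene *zar1l* by 1.72 and *cpeb3*, a polyadenylation factor, by 1.70. The zona pellucida genes *zp2* and *zp4* were not called, at means of 146 and 129.7 and of 120.4 and 131.

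Germ plasm RNAs, which mark the few cells that will form the germ line, were called lower or not at all. All 19 tested members had differences below 0 with values as deposited, 11 were called lower, 8 were not called and 0 were higher, and the median was -0.86. Most genes shared that sign, as only 4778 of all 14626 tested had a difference above 0. With the median ratio at 1, 6 were called lower and 0 higher. *velo1*, a component of the oocyte's Balbiani body, was at 126, 65.9 and 32.5 at 2, 2.5 and 3 h and 18.6, 7.88 and 16.5 at 3.5, 4 and 4.5 h and fell by 2.18. *dnd1*, which protects germ cell RNAs, was at 117, 73.5 and 47.2 at 2, 2.5 and 3 h and 28.1, 17.1 and 16.7 at 3.5, 4 and 4.5 h and fell by 1.83. *ddx25*, *grip2* and *sybu* fell by 1.5, 1.18 and 1.18. *ddx4*, the germ cell helicase Vasa, was at 69.9, 81.2 and 74.1 at 2, 2.5 and 3 h and 72.9, 61.6 and 65.3 at 3.5, 4 and 4.5 h and was not called (-0.17 ± 0.16).

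Cell cycle genes were lower in 37 of 72 cases and higher in 6, with a median of -0.58, and with the median ratio at 1 the counts were 22 and 14. The embryonic cyclins led the falls. *ccnb1*, a cyclin of mitosis, was at 1017, 446 and 249.9 at 2, 2.5 and 3 h and 89.6, 51.6 and 35.5 at 3.5, 4 and 4.5 h, a loss at every time point and a difference of -3.12 ± 0.51 (adjusted p = 0.0114, limma). *ccna1*, the cyclin A of egg and early embryo, was at 597, 309 and 218 at 2, 2.5 and 3 h and 96.9, 53.7 and 36.6 at 3.5, 4 and 4.5 h (-2.55 ± 0.43). *rif1*, which sets the timing of replication origins, and *e2f1*, an activator of S-phase genes, fell by 2.42 and 2.02. The catalytic partner *cdk1* was at 144, 127 and 131 at 2, 2.5 and 3 h and 123, 164 and 119 at 3.5, 4 and 4.5 h and was not called (0.01 ± 0.17). *cdknx*, an inhibitor of cyclin-dependent kinases, was at 37.0, 87.3 and 81.9 at 2, 2.5 and 3 h and 206, 295 and 495 at 3.5, 4 and 4.5 h and rose by 2.26 ± 0.40, and *btg1* and *rbl1*, a relative of the retinoblastoma gene, rose by 1.02 and 0.97.

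Most ribosomal protein genes rose. Of 77 tested 63 rose and 0 fell, with a median of 0.94, or 1.27 above all genes, and 38 rose and 0 fell with spike-in scaling. *rps2* was at 104, 214 and 246 at 2, 2.5 and 3 h and 478, 691 and 671 at 3.5, 4 and 4.5 h, with no overlap and a difference of 1.77 ± 0.32 (adjusted p = 0.0114, limma). *rps13*, *rps3a*, *rpl32* and *rpl37* followed with 1.65, 1.65, 1.58 and 1.51. The rise of *rps2* had begun within the early window, from 104 to 246. The lowest member was the paralog *rpl22l1*, at -0.53 and not called.

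Of the 15 largest rises among genes with a symbol, those not yet described had varied roles. *irg1* (gene18973), named after the enzyme that makes itaconate, was at 0.128, 1.3 and 12.9 at 2, 2.5 and 3 h and 163, 544 and 1229.7 at 3.5, 4 and 4.5 h. It had the largest difference of the 15, 7.18 ± 0.98 (adjusted p = 0.0114, limma), and was higher at each time point than at the one before. The gap junction genes *gjb1* and *gjb2* were at 1.45, 2.16 and 5.64 at 2, 2.5 and 3 h and 48.4, 166 and 227 at 3.5, 4 and 4.5 h and at 0.213, 1.38 and 5.81 at 2, 2.5 and 3 h and 31.1, 85.8 and 161 at 3.5, 4 and 4.5 h. Both were present at low abundance from 2 h and rose by 5.05 ± 0.59 and 4.83 ± 0.72. *hao1*, an oxidase of peroxisomes, *mmp3*, a matrix metalloproteinase, and *igf2*, a growth factor, rose by 4.85 ± 0.60, 4.54 ± 0.62 and 4.22 ± 0.83. *celf3*, an RNA-binding protein of neural tissue, was listed at 0 at 2, 2.5 and 3 h and at 13.5, 54.6 and 134 at 3.5, 4 and 4.5 h, so no fold is given (adjusted p = 0.0114 in limma).

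The 15 largest falls ranged from -3.55 to -2.62, and 14 of the 15 had peaked by 1 h. They included genes of nucleotide and DNA care, *dctpp1*, which removes modified nucleotides, at 569, 276 and 155 at 2, 2.5 and 3 h and 65.4, 30.4 and 16.7 at 3.5, 4 and 4.5 h (-3.13 ± 0.56), *ung*, which removes uracil from DNA (-3.06 ± 0.52), and *parpbp* (-2.81 ± 0.49). *cenpa*, the histone H3 variant of centromeres, was at 307, 239 and 159 at 2, 2.5 and 3 h and 65.4, 21.5 and 12.7 at 3.5, 4 and 4.5 h (-3.06 ± 0.53, adjusted p = 0.0114 in limma). *zfp36l2.1*, which binds AU-rich RNA and promotes its decay, was at 174, 56.3 and 31.3 at 2, 2.5 and 3 h and 12.5, 5.06 and 5.96 at 3.5, 4 and 4.5 h, after 1361 at 0 h (-3.05 ± 0.59). *spdyc*, an activator of Cdk1 and Cdk2 of the Speedy family, fell by 2.72. *tmem106b*, *dnajb14*, *rhbdd1*, *ccl4* and *bend2* fell by 2.75, 2.66, 2.65, 2.62 and 2.62.

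Over the whole 13-point control course the called genes differed in when they peaked. Of the 1668 higher genes, 759 (45.5%) had their highest value within the late window and 876 (52.5%) at 5 to 6 h. At 0 h, 905 of them were below 10% of their highest value and 229 at 50% or more of it. Of the 4802 lower genes 4377 (91.1%) peaked at 0 to 1 h and 420 (8.75%) at 1.5 to 3 h. At 0 h, 2883 of the lower genes (60.0%) held at least 50% of their highest value. Among the 8156 genes not called, 52.6% peaked at 0 to 1 h and 64.9% held at least 50% at 0 h. A call leaves little room for a peak in the window with the lower mean, so peak times follow in part from the calls. In 157 lower genes the course started below 10% of the highest value, among them *nodal2*, *mix1*, *bix1.1* and *eomes*. By 6 h, 2148 lower genes (44.7%) were below 10% of their highest value, and 2 of the higher genes were.

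In the high K+ course the same step gave 767 genes higher (5.24% of those tested) and 6505 lower (44.5%), with a median difference of -0.61. With the median ratio at 1 the counts were 2042 and 1739. The authors corrected base composition separately in each condition, so treatment and that correction cannot be told apart between the courses. With values as deposited, of the 1668 genes higher in controls 82.6% also had a positive difference in high K+ and 678 were called, which is 40.6% of the control list and 88.4% of the high K+ list. Of the 4802 lower genes 99.5% had a negative difference and 4049 were called, 84.3% and 62.2% of the respective lists. With a median of -0.61 over all genes tested, a negative difference was the common sign in high K+ whatever the control call. The shares of matching sign therefore reflect in part this shift of all genes. In the 15 largest control rises, 14 were also called higher in high K+, the exception being *celf3*, and all 15 of the largest falls were called lower. *msgn1* differed by 5.14 in controls and 4.10 in high K+, *myod1* by 4.19 and 2.83, *nodal* (gene417) by -3.55 and -3.41 and *ccnb1* by -3.12 and -3.01. Of the ribosomal protein genes 63 were called higher in each course.

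**Figure D5:**
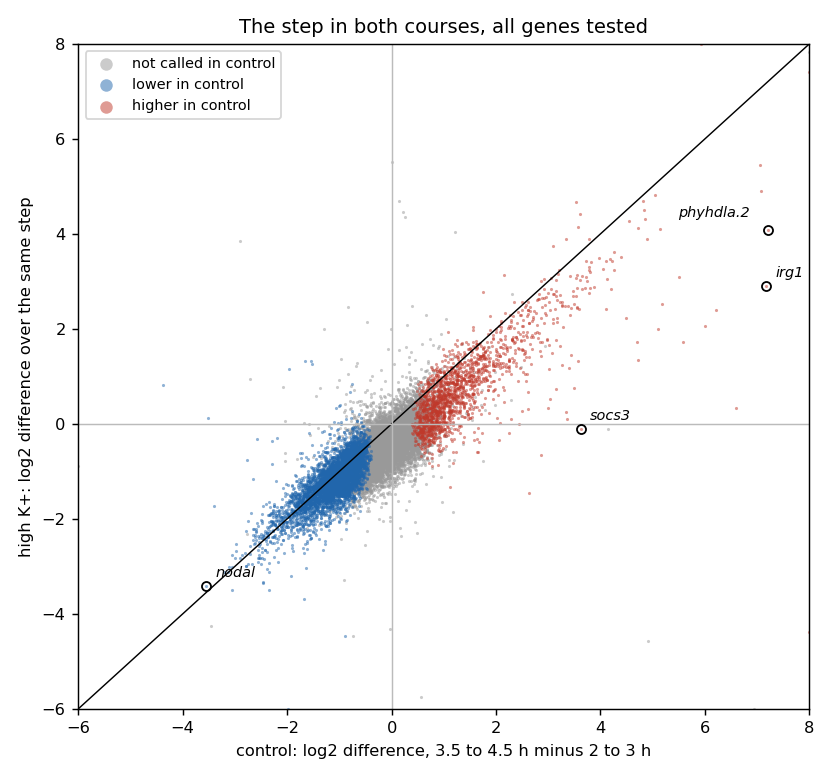
Difference between the windows in controls (x axis) and in high K+ (y axis) on the log2(abundance + 1) scale for all 14626 genes, coloured by their control call, with the line of equal difference and 7 genes beyond the frame drawn at its edge. Genes lower in controls are nearly all below 0 in high K+ as well, where the median of all genes is -0.61. *socs3* (gene3451) lies at 3.62 in controls and -0.10 in high K+.

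The step itself differed between the courses in 2 genes (0.0137% of those tested) in limma, with 1872 genes at an unadjusted p below 0.05. Genes entered this test by their control values alone, so a gene present only in high K+ could not be tested. That both genes rose in controls and not in high K+ therefore follows in part from the filter. The number was 0 with a pseudocount of 0.1, 1 with the median ratio at 1, 0 without the samples at 2.5, 4 or 4.5 h, 8 without those at 2 h and 7 without those at 3.5 h. One was *socs3* (gene3451), an inhibitor of cytokine signaling, which was at 0.306, 0.336 and 0.631 at 2, 2.5 and 3 h and 7.60, 24.1 and 23.7 at 3.5, 4 and 4.5 h in controls. In high K+ it was at 0, 0.198 and 0.173 and then 0.0883, 0.0512 and 0, and the steps differed by -3.72 ± 0.47 (limma interaction, adjusted p = 0.0171). The second gene listed as *socs3* (gene31308) rose in both, by 2.1 and 1.27. The other was gene10291, which carries no symbol and was at 0.485, 0 and 0 at 2, 2.5 and 3 h and 5.75, 5.64 and 4.33 at 3.5, 4 and 4.5 h in controls and at 0 at all 6 high K+ time points (-2.44 ± 0.26, adjusted p = 0.00611, limma). *irg1* reached 4.32, 9.00 and 41.7 in the late high K+ window, yet the difference between its steps, -4.28 ± 1.32, did not pass the test (adjusted p = 0.224, limma). With values as deposited, a further 11 genes were called in opposite directions in the 2 courses, 10 of them higher in controls. Among them were *khsrp* (0.91 and -0.58), *smarca4* (0.56 and -0.68) and *ythdf1* (0.78 and -0.64), chosen after their values were seen. The high K+ differences of these named genes lay close to the median of all genes in that course, -0.61. Relative to the typical gene they thus hardly fell in high K+. The interaction did not pass the test for any of them (adjusted p = 0.209 for each, limma).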

How the data were processed

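RNA was measured in 26 samples of whole *X. tropicalis* embryos, 13 in each of 2 conditions, and 12 of these were used for the tests. According to the methods, the authors aligned reads to the Xt9.1 genome and the ERCC spike-in RNAs with STAR. They estimated the TPM of each isoform by RSEM. A linear model on the spike-ins, fitted in each condition, removed the effect of dinucleotide content, and isoforms were summed per gene. The deposited table gives the corrected abundances, a signal that is never negative, for 34192 genes and for 92 spike-ins. It holds no read counts, and the depth is unknown. The reads were stranded, and whether RSEM was set to use the strand is not given in the sources used here. A gene read at 0 may be a failed estimate, and 8 genes have a value above 1000000 in at least 1 sample.

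Genes with an abundance above 0.4 in 6 consecutive control samples entered a linear model of log2(abundance + 1) in limma (version 3.58.1, R 4.3.3), with variance trended on abundance, without scaling, and with Benjamini-Hochberg adjustment over 14626 genes. The step in high K+ and its interaction with condition were fitted in the same way. The fit was tested on simulated data with known differences. The simulated samples were independent, so this could not check the use of ordered time points in place of replicates. Tables and figures were made with pandas 2.3.3, numpy 2.4.6 and matplotlib 3.10.9 in Python 3.11.15. Named genes were the 15 largest rises and the 15 largest falls with a symbol (automatic LOC names excepted) among called genes whose windows did not overlap and whose higher window averaged at least 10, up to 5 called members in each direction from each of 22 lists, germ layer markers, and genes said to be chosen after their values were seen. Some genes under this rule are not reported here. The members and lists were chosen with earlier results of these data known. Older symbols were matched through RefSeq names of the UCB_Xtro_10.0 assembly, used for names alone. Alternatives were 3 scalings, another pseudocount, a square root transform, 2 filters, all 13 control samples, a linear slope, no variance trend and leaving out each time point. Promoter sequences were not used here.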

Additional observations from a re-analysis of the deposited data

Results flagged for a closer look

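The change over the step differed between control and high K+ embryos in 2 genes by the limma test of the difference itself. The filter used control values alone, so genes present only in high K+ could not appear here. For *socs3* (gene3451) the step in high K+ minus the step in controls was -3.72 ± 0.47 on the log2 scale (adjusted p = 0.0171). All 3 late control values lay above the 3 early ones, and the 6 high K+ values did not exceed 0.198. For gene10291, which has no symbol in the table, the corresponding difference was -2.44 ± 0.26 (adjusted p = 0.00611), with 0 at each of the 6 high K+ time points and no more than 5.75 in controls at those times. With a pseudocount of 0.1, 0 genes passed this test.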

How the results depend on the processing

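The number of genes higher at 3.5 to 4.5 h moved from 1668 to 852 with spike-in scaling, to 3103 with the median ratio set to 1 and to 1034 without a filter on low values, and the number lower moved from 4802 to 2706 with the median ratio at 1. Leaving out 1 time point gave 2 to 1695 genes higher and 0 to 4870 lower, the lowest in each case without the 4 h sample, which leaves late samples 1 h apart. The cause was not tested. Some list counts also moved with all 13 control samples in the fit. The neural plate list then gave 11 higher and 2 lower, ventral and lateral mesoderm 7 and 0 and endoderm 4 and 1. Adhesion, matrix and movement gave 17 and 4 and pluripotency 4 and 4. Paraxial mesoderm with 14 and 0 and Hox and Cdx with 16 and 0 stayed close to their counts above. Over the step in high K+, the median ratio at 1 gave 2042 genes higher and 1739 lower. The 2 genes whose step differed between courses became 0 with a pseudocount of 0.1 and 1 with the median ratio at 1, and leaving out a time point in both courses gave 0 to 8, with 8 without 2 h, 7 without 3.5 h and 2 without 3 h. With the time point as a replicate block there were 5. Samples of both courses with the same number share the time after stage 8. The correlation of their deviations from the window means ranged from 0.07 to 0.58, and 4 of 6 samples correlated best with their own time point. With so few time points in a window, these values cannot decide whether the samples are paired.

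The 164 called genes among the 181 named kept their sign under all 16 alternatives, but calls were lost in 383 of the 2896 combinations of named gene and alternative, 164 of them without the 4 h sample. *sox3* lost the call under 12 alternatives, *nodal5*, *hand2* and *gata5* under 9 and *foxh1*, *foxi1* and *wnt5a* under 8. Calls were gained in 19, with *tfap2c* and *bmp4* called under 4 alternatives and *gata4* under 3. Of the 17 that were not called, the sign changed with the median ratio at 1 for *ddx4* (0.23), *zp2* (0.22), *fgf8* (0.30), *lefty* (0.30) and *sox17b.1* (0.38), with spike-in scaling for *aldh1a2* (-0.11), *zp4* (-0.087), *pou5f3.2* (-0.038), *cdk1* (-0.20) and *grhl1* (-0.17), with scaling to a common total for *cdk1* (-0.051) and *grhl1* (-0.025), and with a linear slope for *cdk1* (-0.025). Without 1 time point, *aldh1a2* ranged from -0.031 to 0.22, *cdk1* from -0.14 to 0.091, *fgf8* from -0.31 to 0.15, *grhl1* from -0.14 to 0.15, *lefty* from -0.25 to 0.013, *pou5f3.2* from -0.024 to 0.31 and *sox17b.1* from -0.13 to 0.15. The search for motifs in promoters was not run.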

Other observations

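Genes that the table lists under automatic LOC names were among the steepest rises, and those named here were chosen after their values were seen. By RefSeq names, 4 of them are *phyhdla.1*, *phyhdla.2*, *phyhdla.3* and *phyhdlb*, a set of related genes. *phyhdla.2* (LOC100490748) was at 0.106, 0.146 and 7.26 at 2, 2.5 and 3 h and 115, 489 and 591 at 3.5, 4 and 4.5 h, a difference of 7.21 ± 0.87. *phyhdla.3* (LOC100490235) was at 0, 2.44 and 25.4 at 2, 2.5 and 3 h and 247, 956 and 924 at 3.5, 4 and 4.5 h, and its difference was 7.07 ± 1.08. *phyhdla.1* (LOC101734170) and *phyhdlb* (LOC100490918) rose by 4.70 ± 0.60 and 4.72 ± 0.49. All 4 had an adjusted p of 0.0114 in limma and were picked among genes whose windows did not overlap. Reads may have been divided between such similar copies in counting. In high K+ their differences were 1.72, 4.08, 4.91 and 1.34 in the order of the names, and the interaction did not pass the test for any of them (adjusted p from 0.209 to 0.609, limma). *acod1la* (LOC100490060) went from 0.353, 0.178 and 4.65 to 45.1, 142 and 356, a pattern close to that of *irg1*.

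In 4 families grouped by symbol, also chosen after their values were seen, most tested members were called lower with values as deposited. Of 31 tested kinesin genes (symbols beginning with kif) 20 were lower and 1 higher, of 32 centrosomal genes (cep) 23 were lower and 0 higher, of 46 F-box genes (fbx) 28 were lower and 1 higher, and of 42 ubiquitin-specific protease genes (usp) 24 were lower and 1 higher, against 32.8% lower among all genes. Their median differences were -0.78, -0.97, -0.75 and -0.76. With the median ratio set to 1 the medians were -0.39, -0.66, -0.43 and -0.45, and 9, 12, 16 and 15 genes were lower. Under that scaling 3103 of all 14626 genes were higher and 2706 lower. Mitochondrial ribosomal protein genes (mrp) had a median of -0.22, with 10 of 72 higher and 21 lower. Those counts lie close to the shares of all genes, 11.4% higher and 32.8% lower, and so do not set this family apart. With the median ratio at 1 their median was 0.18, with 18 higher and 10 lower. Of 19 nucleoporin genes (nup) 0 were higher and 9 lower with a median of -0.31, and with the median ratio at 1 the counts turned to 7 higher and 3 lower.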
